A study of Mus musculus with 36 samples.

Results

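The genes described here are 40 interferon response genes in the livers of mice given carbon tetrachloride (CCl4) for up to a year. They were chosen by symbol, with earlier results of these data known, and all 40 were found among the 32544 gene symbols of the counts table. Each of the 40 had enough reads to be tested, as did 15338 symbols in all, and the lowest count of a member in any library was 32, for Mx1. Livers came from 36 male C57BL/6N mice in 6 groups of 6, with 1 library per mouse. The tested mice had received CCl4, a toxin that hepatocytes convert to a radical, dissolved in olive oil, at a dose of 1 g per kg, for 2, 6 or 12 months. Mice given olive oil alone for 2 or 12 months served as controls, and no oil group of month 6 is labelled. The last group is called a month 0 control in its titles, whereas its treatment label reads olive oil. Mice were 8 to 10 weeks old at the start, were injected 2 times a week, and were killed on day 6 after the last CCl4 injection. All groups share 1 sex and 1 strain, and each library is bulk RNA of whole liver.

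Interferons are secreted proteins that switch on antiviral genes. Type I and type III interferons act through a complex that includes STAT2 and IRF9 and binds the interferon-stimulated response element (ISRE). Interferon gamma, made mainly by T and NK cells, acts mainly through the gamma-activated sequence (GAS). The induced genes include sensors of foreign nucleic acid, effectors that block viral replication, GTPases that attack the vacuoles of intracellular microbes, and the immunoproteasome and peptide transporter that feed MHC class I. In the liver, hepatocytes, Kupffer cells, endothelial cells and lymphocytes can all respond to interferon.

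RefSeq windows on GRCm38.p6, from 250 bases before to 50 after an annotated start, were found for 29 of the 40 members. No entry was matched for Dhx58, Zbp1, Oas2, Mx1, Mx2, Usp18, Parp9, Parp14, Gbp6, Iigp1 and Ifi27. The ISRE core, searched on both strands as GAAA, any 2 bases and GAAA again (TTTC in place of GAAA on the other strand), was present in windows of 17 of the 29 members (58.6%), against 3.99% of 27025 genes with a window. The GAS motif TTCNNNGAA, which reads the same on both strands, was present in 9 of 29 members (31%), against 9.55% of genes. A match describes the letters of the window and is no measure of binding. The windows of Tap1 and Psmb9, which lie on opposite strands of chromosome 17, share 275 bases.

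**Figure D1:**
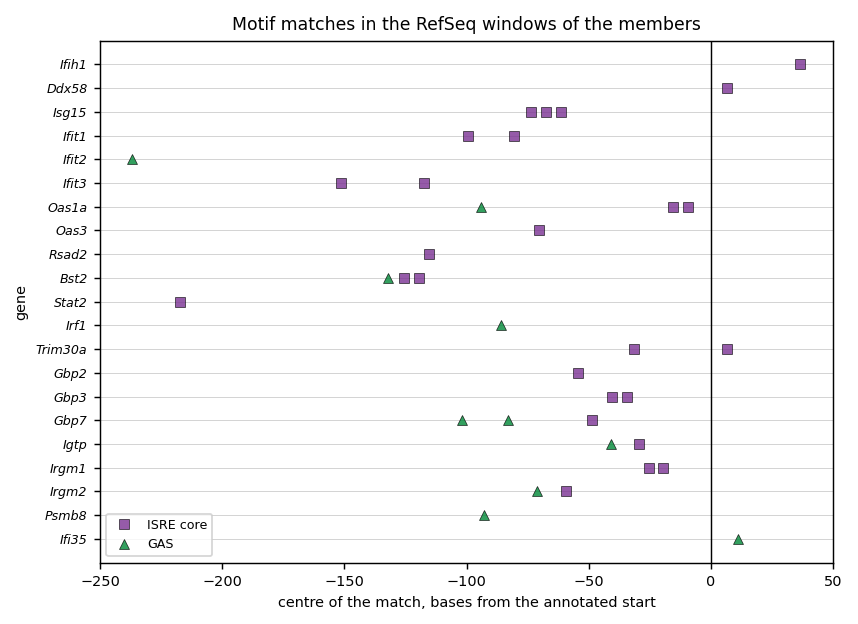
Position of each ISRE core (squares) and GAS (triangles) match in the RefSeq windows of the members that held one. The x axis gives bases from the annotated start, and the y axis the gene. Most ISRE matches lie before the start; among ISRE matches that of Stat2 lies farthest upstream, and Ifih1, Ddx58 and Trim30a have a match after the start.

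The 150 bases before the start are printed for Oas1a, Psmb8, Ifi44 and Ifit2, the members with a RefSeq entry and the smallest p in CCl4 against oil, with motif matches in capitals. Neither exact search string was found in the windows of all these genes. Near matches were not searched for, so a shared motif cannot be judged from this. Oas1a (chr5:120907526-120907675, minus strand) was the member called higher in CCl4 livers at months 2, 6 and 12, and it held a GAS and 2 overlapping ISRE cores. Psmb8 (chr17:34198045-34198194, plus strand) held a GAS. The stretch of Ifi44 (chr3:151749911-151750060, minus strand) held neither search string. Of 2 annotated windows of Ifit2 (chr19:34550544-34550693 and chr19:34550938-34551087, plus strand), one had a GAS upstream of the stretch shown.
Oas1a: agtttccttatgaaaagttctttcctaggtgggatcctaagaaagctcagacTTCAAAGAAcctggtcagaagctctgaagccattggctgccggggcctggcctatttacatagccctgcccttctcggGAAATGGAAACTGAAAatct
Psmb8: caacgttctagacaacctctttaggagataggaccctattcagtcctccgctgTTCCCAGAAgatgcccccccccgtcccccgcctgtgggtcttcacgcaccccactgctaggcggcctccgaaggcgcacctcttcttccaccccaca
Ifi44: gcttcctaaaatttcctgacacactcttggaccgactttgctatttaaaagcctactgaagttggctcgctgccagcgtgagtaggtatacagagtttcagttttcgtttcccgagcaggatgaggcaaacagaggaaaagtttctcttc
Ifit2, first window: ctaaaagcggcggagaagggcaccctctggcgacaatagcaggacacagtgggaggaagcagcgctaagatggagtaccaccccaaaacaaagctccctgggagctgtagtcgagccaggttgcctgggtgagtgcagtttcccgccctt
Ifit2, second window: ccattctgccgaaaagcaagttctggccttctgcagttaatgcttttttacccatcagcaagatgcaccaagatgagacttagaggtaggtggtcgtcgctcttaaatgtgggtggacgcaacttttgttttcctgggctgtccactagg

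The ISRE matches of members of the ISG15, IFIT, viperin and GTPase groups follow, with 10 bases on each side and the match in capitals. They were chosen after the values were seen, to set effectors beside GTPases. Isg15 (chr4:156200865-156200906, minus strand) had 3 overlapping matches and Irgm1 (chr11:48871425-48871460, minus strand) had 2. Ifit1 (chr19:34640775-34640804 and chr19:34640794-34640823, plus strand) and Ifit3 (chr19:34583363-34583392 and chr19:34583397-34583426, plus strand) each had 2 separate matches. Rsad2 (chr12:26456553-26456582, minus strand) and Igtp (chr11:58199512-58199541, plus strand) had 1 each.
Isg15: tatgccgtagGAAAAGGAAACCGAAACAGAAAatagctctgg
Ifit1, first: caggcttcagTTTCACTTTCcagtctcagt
Ifit1, second: ccagtctcagTTTCAGTTTCtcactgctga
Ifit3, first: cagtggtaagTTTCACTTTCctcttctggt
Ifit3, second: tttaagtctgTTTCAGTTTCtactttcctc
Rsad2: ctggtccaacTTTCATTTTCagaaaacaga
Igtp: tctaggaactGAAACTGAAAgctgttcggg
Irgm1: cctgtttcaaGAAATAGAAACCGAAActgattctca

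Library totals ran from 19403247 to 28917545 counts. Summed levels of 8 hepatocyte markers ran from 79268 to 198633 CPM (counts scaled to the TMM-adjusted library total) over the 36 livers. TMM scaling factors ran from 0.757 to 1.33 and differed by group, with the lowest at month 0 and the highest in month 12 CCl4. Scaled by library totals alone, the median log2 fold change of all tested genes was 0.20, 0.31 and 0.56 for CCl4 against oil at months 2, 6 and 12, and 0.23 and 0.13 for month 2 and month 12 oil against month 0, whereas under TMM it lay between -0.00 and 0.01 in these comparisons. Fold changes below are therefore relative to the bulk of genes. In month 2 CCl4, replicate 1 was highest for neutrophil (202 CPM) and blood markers (7305 CPM) and replicate 6 for intestine markers (767 CPM). Within the month 2 oil group, replicate 2 was highest for pancreas markers (17373 CPM). Within the month 12 oil group, replicate 2 was highest for B and plasma cell markers (303 CPM). Pancreas markers varied from 1.11 to 33829 CPM over all livers. Without these 4 libraries, which earlier results of these data had singled out, 1, 1 and 18 members were called higher in CCl4 livers at months 2, 6 and 12. In that run 28 and 18 were called lower in month 2 and month 12 oil livers than at month 0. Month 2 CCl4 replicate 5 and month 12 oil replicate 4 were kept in it. Their pancreas markers were the highest of their groups, at 33829 and 32338 CPM.

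The interferon response genes moved in 2 ways. Against oil, CCl4 livers had higher levels of many members at month 12 but of few at months 2 and 6, and both oil groups had lower levels than month 0 for most members. A gene was called at an adjusted p below 0.05 in edgeR's quasi-likelihood test over all 15338 genes. At month 12, 20 of 40 members were called higher in CCl4 livers (50%), where 25.9% of all tested genes were, and 4 were called lower (10%), where 23.2% of all tested genes were. The median log2 fold change of the 40 was 0.48, against 0.01 for all tested genes. With library totals alone, 37 members were called higher and 0 lower, where 10331 and 592 of the 15338 tested genes were. In bulk tissue, a change in the number of cells of a type and a change in RNA per cell cannot be told apart.

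At month 2, 1 of 40 members was called higher (2.5%), against 7% of all tested genes, and 0 lower, against 3.38%; in either direction 10.4% of all tested genes were called. At month 6, 2 were called higher (5%), against 7.71%, and 0 lower, against 3.68%. The members' shares at months 2 and 6 thus lay below those of all genes, but rest on 1 and 2 calls. The difference from all genes was not tested. DESeq2 and limma-voom also called 0 members lower at either month, where 1 and 2 members had an unadjusted p below 0.05 in that direction. At those months the members' median log2 fold changes were 0.11 and -0.06. With library totals alone, 10 and 14 members were called higher, where 3160 and 8884 of the 15338 tested genes were. Month 6 CCl4 was set against both oil groups, averaged, so that it shares its controls with the other CCl4 comparisons.

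**Figure D2:**
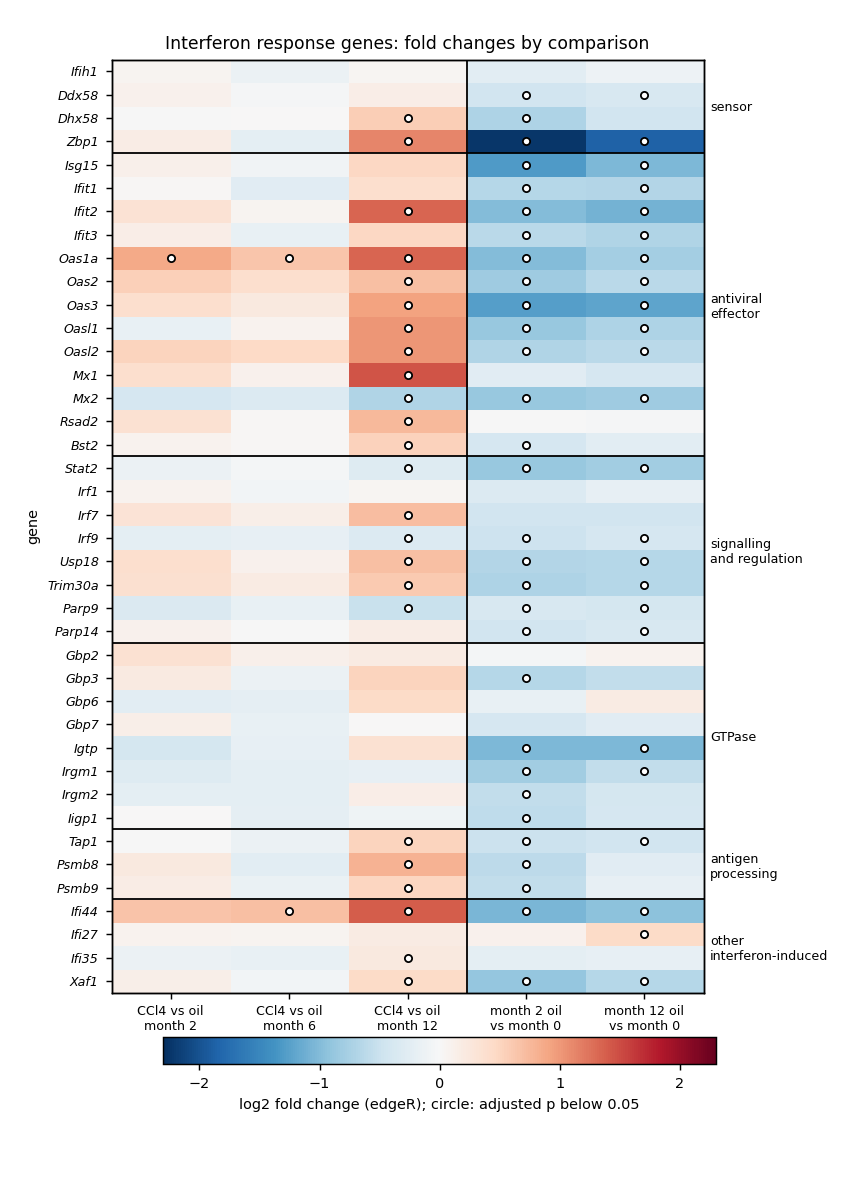
Log2 fold change (colour) of each of the 40 members (rows, grouped by role) in 5 comparisons (columns); a circle marks an adjusted p below 0.05 in edgeR. Circles in red cells are concentrated in the month 12 CCl4 column, and those in blue cells in the columns of the oil groups against month 0. Stat2, Irf9 and Parp9, blue at month 12, turned positive when scaled by library totals alone.

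Of the sensors of cytosolic nucleic acid, Zbp1 and Dhx58 were called higher in month 12 CCl4 livers, and Ifih1 and Ddx58 were not. Zbp1, which binds Z-form nucleic acid and can start necroptosis, had a lowest, median and highest level of 8.04, 12.2 and 15.9 CPM in CCl4 livers, against 4.28, 5.13 and 9.30 CPM in oil livers. Only the highest oil mouse, replicate 4, reached into the CCl4 range, and the log2 fold change was 1.12 ± 0.23 (SE; adjusted p = 0.00012). Dhx58 (LGP2), a regulator of the RIG-I pathway, had 10.6, 17.3 and 22.3 CPM in CCl4 livers and 9.42, 11.4 and 14.4 CPM in oil livers. These ranges overlapped at a log2 fold change of 0.56 ± 0.17 (adjusted p = 0.00555). The RNA helicases Ifih1 (MDA5) and Ddx58 (RIG-I) had log2 fold changes of 0.05 ± 0.09 and 0.16 ± 0.10 (adjusted p = 0.683 and 0.208).

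Antiviral effectors made up the largest called group, with 9 of 13 higher, 1 lower and a median log2 fold change of 0.75. Of all tested genes, 25.9% were called higher and 23.2% lower. Oas1a, a synthase of the 2-5A that activates RNase L, had 12.3, 13.8 and 16.6 CPM in CCl4 livers, against 4.16, 5.16 and 7.43 CPM in oil livers. Every CCl4 mouse lay above every oil mouse, at a log2 fold change of 1.35 ± 0.20 (adjusted p = 1.53e-06). Ifit2, which binds viral RNA and takes part in translation arrest, had 16.4, 20.5 and 26.9 CPM in CCl4 livers and 6.85, 8.95 and 9.82 CPM in oil livers. Its ranges did not overlap either, and the log2 fold change was 1.33 ± 0.20 (adjusted p = 1.53e-06). Mx1, a dynamin-like GTPase against influenza-type viruses, had the largest fold change of the 40 at this month. Its levels were 4.85, 8.12 and 10.0 CPM in CCl4 livers against 2.02, 2.93 and 3.56 CPM in oil livers, without overlap, at a log2 fold change of 1.44 ± 0.20 (adjusted p = 2.89e-07). Many laboratory strains carry a defective Mx1 allele; only RNA was measured.

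The other oligoadenylate synthetases and their relatives were called with Oas1a. Oasl2 had 9.19, 10.7 and 13.7 CPM in CCl4 livers, against 4.13, 5.22 and 7.56 CPM in oil livers, at a log2 fold change of 1.02 ± 0.20. Oas3 had 4.99, 5.15 and 7.05 CPM in CCl4 livers and 2.14, 2.58 and 4.05 CPM in oil livers, at 0.92 ± 0.24. The mice of both groups were separated for these 2 genes, while Oasl1 (1.02 ± 0.21) and Oas2 (0.69 ± 0.19) overlapped. Rsad2 (viperin), which makes a chain-terminating nucleotide, and Bst2 (tetherin), which holds virions on the cell surface, were higher by 0.75 ± 0.24 and 0.54 ± 0.13 and overlapped. All 6 had an adjusted p between 7.69e-05 and 0.0101.

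Isg15, Ifit1 and Ifit3 were not called at month 12. Isg15, the ubiquitin-like modifier, had 5.49, 8.08 and 10.2 CPM in CCl4 livers, against 4.22, 5.18 and 8.74 CPM in oil livers. The groups overlapped, at a log2 fold change of 0.48 ± 0.23 (adjusted p = 0.0758). Ifit3 had 0.48 ± 0.21 (adjusted p = 0.0607) and Ifit1 0.39 ± 0.21 (adjusted p = 0.122), so that of the 3 IFIT genes, which lie together on chromosome 19, 1 was called.

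Mx2, a paralog of Mx1, was lower in month 12 CCl4 livers, at 2.77, 3.82 and 5.38 CPM, against 4.72, 6.38 and 9.41 CPM in oil livers. The groups overlapped in their extremes, and the log2 fold change was -0.70 ± 0.22 (adjusted p = 0.00851). Scaled by library totals alone the value was -0.14, without a call. Mx1 and Mx2 are near relatives on chromosome 16 whose reads may be hard to part; their treatment in the counting is not stated.

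**Figure D3:**
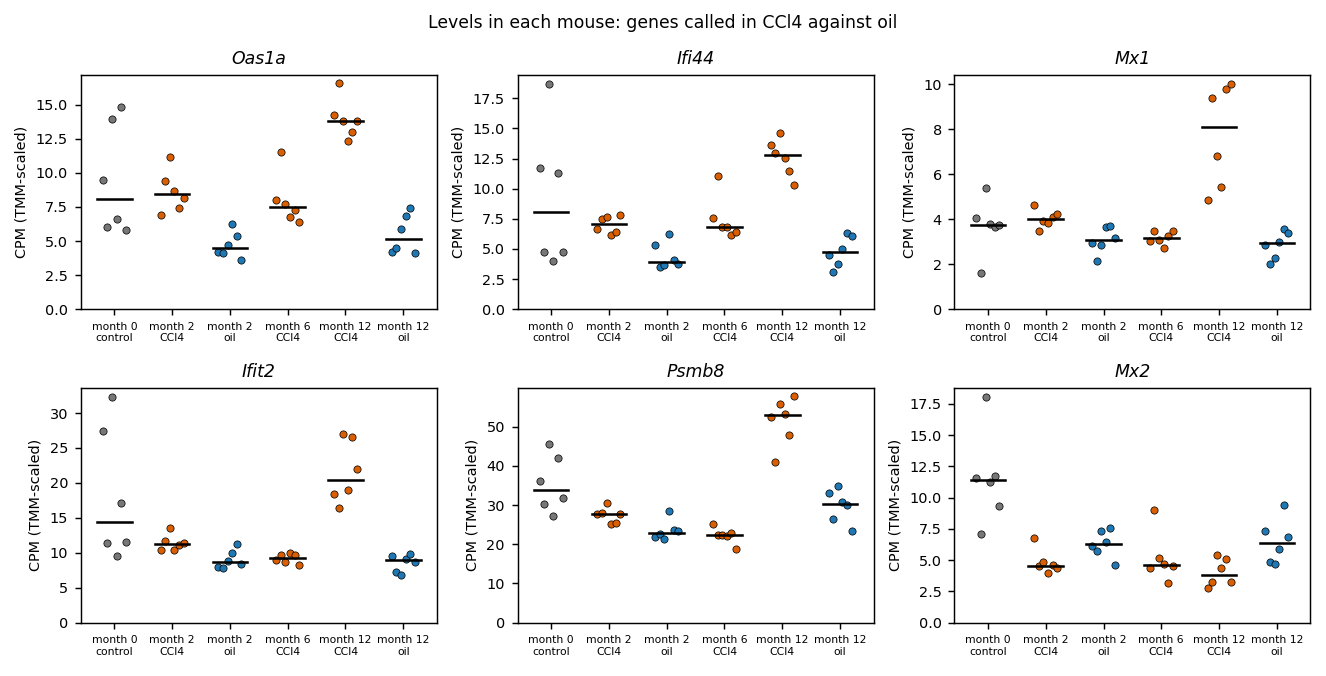
Level in each mouse (points, TMM-scaled CPM) of 6 members, with the group median as a bar; CCl4 groups are orange, oil groups blue and month 0 grey. The 6 month 12 CCl4 mice lie above all 6 month 12 oil mice for Oas1a, Ifi44, Mx1, Ifit2 and Psmb8, whereas for Mx2 the groups overlap with the CCl4 mice lower.

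Genes of signalling and regulation were split, with 3 of 8 higher and 3 of 8 lower in month 12 CCl4 livers. These counts lie near the shares of all tested genes, 25.9% higher and 23.2% lower. Irf7, the transcription factor that amplifies type I interferon production, had 34.5, 41.7 and 54.4 CPM in CCl4 livers, against 19.6, 26.5 and 31.8 CPM in oil livers. The groups did not overlap, and the log2 fold change was 0.72 ± 0.19 (adjusted p = 0.00219). Usp18, which removes ISG15 and dampens receptor signalling, was higher by 0.70 ± 0.19 with overlap, and Trim30a by 0.60 ± 0.16 without (adjusted p = 0.00329 and 0.00197).

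Stat2 and Irf9, partners in the complex that binds the ISRE, and Parp9 were called lower at month 12 under TMM scaling. Stat2 had 20.4, 28.7 and 31.3 CPM in CCl4 livers, against 30.2, 33.9 and 39.1 CPM in oil livers, at a log2 fold change of -0.30 ± 0.10 (adjusted p = 0.0119). Irf9 had 17.4, 27.2 and 29.3 CPM in CCl4 livers and 27.5, 30.1 and 38.7 CPM in oil livers, at -0.32 ± 0.12 (adjusted p = 0.0237). Parp9, a mono-ADP-ribosyltransferase that works with the ubiquitin ligase DTX3L, had 30.8, 49.1 and 66.1 CPM in CCl4 livers and 59.2, 67.8 and 82.6 CPM in oil livers, at -0.51 ± 0.13 (adjusted p = 0.00142). All 3 were near or below the oil range with some overlap, and all 3 turned positive when scaled by library totals alone, to 0.25, 0.24 and 0.05. Stat2 and Irf9 also lost the call without month 12 CCl4 replicate 6, at -0.21 and -0.20. Irf9 lost the call without month 12 CCl4 replicate 4 or month 12 oil replicate 5 as well. The Irf9 call was further lost with no low-count filter (-0.29) and in a fit of the compared groups only (-0.29). Irf1, a mediator of the gamma response, and Parp14 had log2 fold changes of 0.05 ± 0.19 and 0.17 ± 0.12 (adjusted p = 0.849 and 0.235).

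Of the 8 interferon-inducible GTPases, which coat and disrupt the vacuoles of bacteria and parasites, 0 were called in CCl4 against oil at months 2, 6 and 12 under TMM scaling. Of all tested genes, 10.4%, 11.4% and 49.1% were called in either direction at these months. At months 2 and 6, 0 had an unadjusted p below 0.05, and DESeq2 and limma-voom called 0. At month 12, 1 of 8 had an unadjusted p below 0.05, DESeq2 called 0 and limma-voom called 1. With library totals alone, 8 of 8 were called higher at month 12, where 10331 of the 15338 tested genes were. The median log2 fold change of the 8 was then 0.71, against 0.16 under TMM. The gene with an unadjusted p below 0.05 was Gbp3, at 13.2, 17 and 19 CPM in CCl4 livers against 9.16, 12.3 and 12.7 CPM in oil livers. Its groups did not overlap, yet the log2 fold change of 0.51 ± 0.22 missed the threshold (adjusted p = 0.0572). The other 7 had log2 fold changes between -0.19, for Irgm1, and 0.44, for Gbp6. Iigp1 had the highest level of the 8 in reads, at 372, 433 and 620 CPM in CCl4 livers against 318, 517 and 562 CPM in oil livers, and its log2 fold change was -0.11 ± 0.15. Reads of the GBP family and of Igtp and Irgm2, whose genes overlap on chromosome 11, may be shared between members.

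The 3 genes of antigen processing were all called higher at month 12, without overlap of the mice. Of all tested genes, 25.9% were called higher and 12.1% were higher without overlap. Psmb8, a catalytic subunit of the immunoproteasome, had 41.1, 52.9 and 58.0 CPM in CCl4 livers, against 23.3, 30.3 and 34.8 CPM in oil livers, at a log2 fold change of 0.79 ± 0.11 (adjusted p = 2.27e-07). Psmb9, another catalytic subunit, had 18.1, 21.6 and 22.9 CPM in CCl4 livers and 12.9, 15 and 17.4 CPM in oil livers, at 0.50 ± 0.11 (adjusted p = 0.000529). Tap1, a chain of the peptide transporter into the endoplasmic reticulum, had 23.6, 29.7 and 36 CPM in CCl4 livers and 18.4, 20.3 and 23.4 CPM in oil livers, at 0.52 ± 0.12 (adjusted p = 0.000767).

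Of the remaining members, Ifi44, Ifi35 and Xaf1 were called higher at month 12. Ifi44 had 10.3, 12.8 and 14.6 CPM in CCl4 livers against 3.13, 4.74 and 6.35 CPM in oil livers, with no overlap and a log2 fold change of 1.39 ± 0.26 (adjusted p = 3.13e-05). Xaf1, an antagonist of the apoptosis inhibitor XIAP, had 0.44 ± 0.14 (adjusted p = 0.0114). Ifi35 had 0.23 ± 0.09 (adjusted p = 0.0448), and the call was lost without any 1 of the 6 month 12 oil mice or month 12 CCl4 replicate 3, at values between 0.16 and 0.23. Ifi27 had 0.18 ± 0.16 (adjusted p = 0.359). In all, 12 of 40 members had month 12 CCl4 mice wholly above month 12 oil mice, where 12.1% of all tested genes did, and 0 lay wholly below, where 10.2% did.

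At months 2 and 6 few members were called. Oas1a was the 1 member called at month 2, with 6.93, 8.42 and 11.2 CPM in CCl4 livers against 3.63, 4.46 and 6.28 CPM in oil livers. The mice did not overlap, and the log2 fold change was 0.87 ± 0.20 (adjusted p = 0.00454). Oasl2 was separated too, at 6.36, 7.20 and 8.45 CPM in CCl4 livers against 4.50, 4.93 and 6.07 CPM in oil livers, but was not called (0.51 ± 0.20; adjusted p = 0.103). Without overlap at month 2 were thus 2 of 40 members, where 4.64% of all tested genes were higher and 2.40% lower in that way. A fit of the month 2 groups alone called 5 members higher and 2 lower, where 1365 and 817 of 14187 genes were. These counts lie near the shares of all genes.

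At month 6, Oas1a had 6.38, 7.50 and 11.6 CPM in CCl4 livers and Ifi44 had 6.15, 6.83 and 11 CPM. Against the mean of both oil groups their log2 fold changes were 0.64 ± 0.17 and 0.69 ± 0.21 (adjusted p = 0.0113 and 0.0305). Each range overlapped the oil mice, and in both genes month 6 CCl4 replicate 2 was the highest mouse. Without that mouse, 0 members were called at month 6, at log2 values of 0.51 for Oas1a and 0.56 for Ifi44. Ifi44 was also lost without month 6 CCl4 replicate 1, month 12 oil replicate 1 or month 12 oil replicate 3. Month 6 CCl4 replicate 2 was the highest mouse of its group for 26 of the 40 members. It also had the highest summed levels in its group of monocyte and infiltrating macrophage markers, 220 CPM against a group median of 107 CPM, and of neutrophil markers, 91.8 CPM against 26.7 CPM. The part of these cells in the result was not tested.

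The test of the difference between the CCl4 effects at month 12 and month 2 called 7 of 40 members higher (17.5%), where 11.2% of all tested genes were. None was called lower, where 10.1% of all tested genes were. In that direction 0 members had an unadjusted p below 0.05, and DESeq2 and limma-voom called 0. The 7 were Oasl1 (log2 difference 1.19 ± 0.29), Mx1 (1.05 ± 0.27), Ifit2 (1.00 ± 0.28), Zbp1 (0.95 ± 0.32), Psmb8 (0.57 ± 0.15), Tap1 (0.52 ± 0.18) and Ifi35 (0.37 ± 0.13). Oasl1 had 15.2, 25.5 and 38.5 CPM in month 12 CCl4 livers against 9.93, 12.9 and 17.8 CPM in month 12 oil livers, and 7.36, 10.2 and 12.5 CPM in month 2 CCl4 livers against 9.72, 11.7 and 12.9 CPM in month 2 oil livers. Its groups thus overlapped at both months, with most month 12 CCl4 mice above the oil range. Oas1a, called at both months, had a difference of 0.47 ± 0.28 (adjusted p = 0.251). Ifit2, Mx1, Oasl1 and Psmb8 kept the call without each single library, and 4 members were called without month 12 oil replicate 2.

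Transcripts of the interferons themselves were few. The table listed 21 interferon ligand genes, none of which had enough reads to be tested, and 12 had 0 counts in all 36 libraries. Ifnb1, the main type I interferon of non-immune cells, was among those with 0 counts. Ifng, the gene of interferon gamma, had 36 counts in all, of which 13 were in the 6 month 12 CCl4 livers and 10 in the 6 month 12 oil livers. Ifnk, the gene of interferon kappa, held 200 of the 329 ligand counts, with 22 in the month 12 CCl4 livers and 35 in the month 12 oil livers. The absence of interferon transcripts or protein cannot be read from these counts.

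Of the 6 receptor subunits, 4 were called higher in month 12 CCl4 livers, where 25.9% of all tested genes were. Ifngr1, the ligand-binding chain for interferon gamma, had 40.1, 45.5 and 66.9 CPM in CCl4 livers against 19.6, 23.9 and 29 CPM in oil livers, with no overlap and a log2 fold change of 0.99 (adjusted p = 6.07e-09). Its partner Ifngr2 had a log2 fold change of 0.71, and Il10rb and Ifnlr1, the chains of the type III receptor, had 0.83 and 2.18 (adjusted p = 1.59e-06, 1.03e-06 and 2.44e-06). Ifnlr1 was low throughout, at 0.890 to 2.23 CPM in CCl4 livers and 0.136 to 0.515 CPM in oil livers. The chains of the type I receptor, Ifnar1 and Ifnar2, had log2 fold changes of 0.05 and -0.05 and were not called (adjusted p = 0.629 and 0.659), but were 0.60 and 0.50 and called with library totals alone. Il10rb and Ifngr1 were already called higher at month 2 (0.71 and 0.44) and at month 6 (0.50 and 0.36).

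The counts of the other pathway lists at month 12 are to be read against the 25.9% of all tested genes that were called higher and the 23.2% called lower. In a list of 11 signal transducers, 2 were called higher, Irf8 (0.95) and the MHC class II regulator Ciita (1.33), and 3 lower, Irf3 (-0.38), Irf5 (-0.37) and Irf2 (-0.31). These counts lie near the shares of all genes, and the median log2 fold change of that list was 0.06. Of 15 genes of nucleic acid sensing, 9 were called higher, led by Aim2 (1.53), Tlr7 (1.05) and Tmem173, the gene of STING (0.91), and the RIG-I adaptor Mavs was lower (-0.45); the median was 0.44. Of 8 inhibitors, 2 were called higher, among them the phosphatase Ptpn6 (0.56), and Pias1 was lower (-0.21). Irf2, Irf3, Irf5, Mavs and Pias1 turned positive with library totals alone, at log2 values between 0.09 and 0.34.

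Interferon-induced genes outside the 40 were called in both directions at month 12, where 25.9% of all tested genes were higher and 23.2% lower. Of 57 tested antiviral genes, 26 were higher and 5 lower, with a median of 0.34. Ifi27l2b (3.11), the necroptosis effector Mlkl (1.93) and Lgals3bp (0.92) led the higher ones, and Gm4951 (-0.91), Ifitm3 (-0.62) and Dtx3l (-0.48), the partner of Parp9, the lower ones. Of 15 other interferon-inducible GTPases, 5 were higher, among them Tgtp1 (1.59), Gbp9 (1.17) and Gbp8 (1.05), and 4 lower, among them Gbp11 (-2.02) and Gbp2b (-1.22), with a median of -0.04; these counts lie near the shares of all genes. Of 9 chemokines and regulators induced by interferon gamma, 5 were higher, including Casp1 (1.78), Ccl5 (1.61) and the T cell chemokine Cxcl9 (1.31), and the peptidase Lap3 was lower (-0.67). Of 19 genes of MHC class I presentation, 8 were higher, including Tap2 (0.66), H2-Q4 (0.61) and the transporter partner Tapbp (0.56), and 3 lower, namely Erap1 (-0.48), Calr (-0.45) and Canx (-0.25). Dtx3l, Erap1, Calr and Canx turned positive with library totals alone, at 0.07, 0.08, 0.10 and 0.30.

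Markers of some immune cell types, not all, were called higher in month 12 CCl4 livers, where 25.9% of all tested genes were. T and NK cell markers summed to between 13.1 and 21.9 CPM in month 12 CCl4 livers and between 7.68 and 12.9 CPM in oil livers, with 7 of 13 called higher. Markers of monocytes and infiltrating macrophages summed to between 79.5 and 124 CPM in CCl4 livers and between 26.3 and 58.2 CPM in oil livers, with 7 of 7 called higher. At month 2, where 1 member was called, 6 of these 7 were also higher, at summed levels of 86.6 to 103 CPM in CCl4 livers against 28 to 71.1 CPM in oil livers. Of 5 plasmacytoid dendritic cell markers, 2 were called higher at month 12, and of 6 classical dendritic cell markers, 3. The summed ranges were 30.2 to 54.4 CPM in CCl4 livers against 23.4 to 331 CPM in oil livers for the plasmacytoid list. They were 13.3 to 17.8 CPM against 10.9 to 13.1 CPM for the classical list. The oil mouse highest for the plasmacytoid list, replicate 4, was also highest of its group for pancreas markers, so that sum cannot be read as plasmacytoid cells alone. Of 6 B and plasma cell markers, 1 was called higher at month 12. Of 5 tested neutrophil markers, 0 were called, though all 5 had positive log2 fold changes. Of 5 sinusoidal endothelial markers, 1 was called higher and 2 lower. Of 8 hepatocyte markers, 5 were called lower at month 12, and of 6 Kupffer cell markers, 2, where 23.2% of all tested genes were lower. No marker of these lists was at 0 counts in either group. The part of these cells in the levels of the 40 genes was not tested.

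Oil livers stood below month 0 livers for most members. Month 2 oil livers had 30 of 40 members lower (75%), where 16.4% of all tested genes were called lower, and 0 higher, where 14.8% were. In the higher direction 0 members had an unadjusted p below 0.05, and DESeq2 and limma-voom called 0. Month 12 oil livers had 23 of 40 lower (57.5%), where 12.2% of all tested genes were, and 1 higher, where 11.1% were. The members' median log2 fold changes were -0.61 and -0.44. With library totals alone, 18 and 16 were called lower, where 1028 and 926 of the 15338 tested genes were. A fit of the compared groups only called 12 lower in month 12 oil livers, and 10 of the 24 calls there, like 18 of the 30 in month 2 oil livers, were made in every alternative run. Both comparisons share the 6 month 0 mice, and the month 2 and month 12 oil mice are also the controls of the CCl4 comparisons.

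Zbp1 stood out among the sensors. It had 3.15, 4.42 and 5.81 CPM in month 2 oil livers and 4.28, 5.13 and 9.30 CPM in month 12 oil livers, against 11.7, 18.8 and 30.2 CPM at month 0. Neither oil group overlapped month 0, at log2 fold changes of -2.24 ± 0.23 and -1.85 ± 0.23 (adjusted p = 1.32e-08 and 7.26e-07). Ddx58 was lower in both oil groups (-0.45 and -0.36), Dhx58 in month 2 oil livers (-0.71), and Ifih1 in neither.

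Most effectors were lower than at month 0, with 11 of 13 called lower in month 2 oil livers and 10 of 13 in month 12 oil livers. Of all tested genes, 16.4% and 12.2% were called lower. Isg15 had 3.56, 4.89 and 5.34 CPM in month 2 oil livers and 4.22, 5.18 and 8.74 CPM in month 12 oil livers, against 4.58, 11.9 and 17.8 CPM at month 0. The wide month 0 range overlapped both oil groups, at log2 fold changes of -1.30 ± 0.23 and -1.04 ± 0.23 (adjusted p = 6.16e-05 and 0.00129). Oas3 had 1.5, 2.87 and 4.00 CPM in month 2 oil livers and 2.14, 2.58 and 4.05 CPM in month 12 oil livers, against 3.3, 6.63 and 10.8 CPM at month 0, at -1.26 ± 0.24 and -1.21 ± 0.24. Ifit2, Oas1a and Mx2 had -1.01, -1.0 and -0.87 at month 2, and -1.09, -0.79 and -0.82 at month 12. Rsad2 and Mx1 were not called in either oil group, at log2 values between -0.38 and 0.00. Bst2 was lower in month 2 oil livers (-0.39) and not called in month 12 oil livers (-0.23).

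Stat2, the partner of IRF9, had 26.5, 32.2 and 41.1 CPM in month 2 oil livers and 30.2, 33.9 and 39.1 CPM in month 12 oil livers, against 53.1, 58.7 and 70.9 CPM at month 0. No oil mouse reached the month 0 range, and the log2 fold changes were -0.87 ± 0.10 and -0.81 ± 0.10 (adjusted p = 7.72e-08 and 6.65e-07). Irf9, Usp18, Trim30a, Parp9 and Parp14 were lower in both oil groups, at log2 values between -0.72 and -0.36, and Irf7 and Irf1 in neither.

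**Figure D4:**
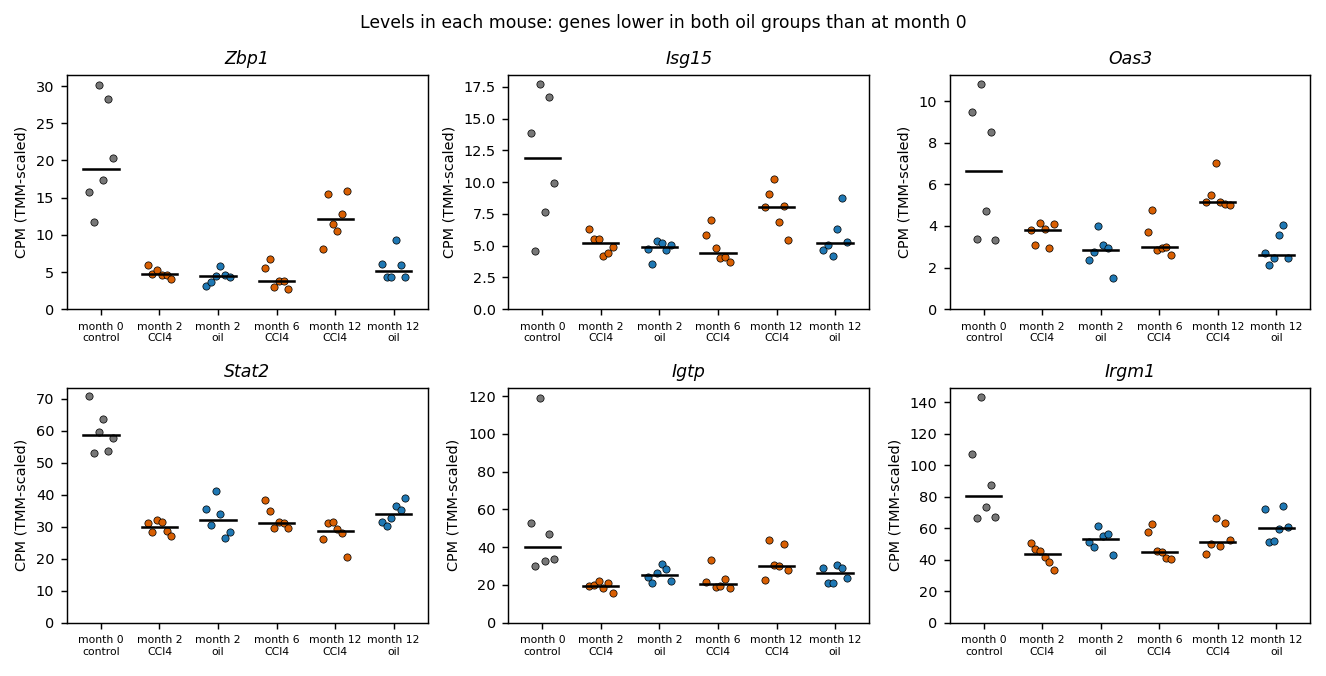
Level in each mouse (points, TMM-scaled CPM) of 6 members called lower in both oil groups than at month 0, with the group median as a bar. Zbp1 and Stat2 of every oil mouse lie below every month 0 mouse, whereas the highest month 0 mouse, replicate 3, stands far above the others for Igtp.

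The GTPases, uncalled in CCl4 against oil, were lower than at month 0 in 5 of 8 cases in month 2 oil livers and in 2 of 8 in month 12 oil livers. The shares of all tested genes called lower were 16.4% and 12.2%. Irgm1, which regulates the other immunity-related GTPases, had 42.9, 53.1 and 61.2 CPM in month 2 oil livers and 51.3, 60.1 and 74.0 CPM in month 12 oil livers, against 66.5, 80.5 and 144 CPM at month 0. The month 12 oil mice overlapped, and the month 2 oil mice did not overlap, month 0, and the log2 fold changes were -0.79 ± 0.16 and -0.56 ± 0.16 (adjusted p = 0.00023 and 0.00866). Igtp had 20.9, 25.3 and 31.2 CPM in month 2 oil livers and 21, 26.3 and 30.4 CPM in month 12 oil livers, against 29.8, 40.3 and 119 CPM at month 0, at -1.04 ± 0.23 and -1.03 ± 0.23. Gbp3, Irgm2 and Iigp1 were called lower in month 2 oil livers and not in month 12 oil livers, at -0.66, -0.56 and -0.58, a difference between the oil groups that was not tested.

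Psmb8 and Psmb9 were called lower in month 2 oil livers (-0.60 and -0.56) and not in month 12 oil livers (-0.26 and -0.19), and Tap1 in both (-0.49 and -0.44). Ifi44 and Xaf1 were lower in both, at -1.05 and -0.89 in month 2 oil livers and -0.94 and -0.65 in month 12 oil livers. Ifi27 was the 1 member called higher in month 12 oil livers, at 88.0, 125 and 136 CPM against 67.0, 89.0 and 105 CPM at month 0. Its groups overlapped, the log2 fold change was 0.44 ± 0.16 (adjusted p = 0.0465), and the call was lost in 9 of the 12 fits that left out 1 library. Wholly below month 0 were 7 members in month 2 oil livers, where 6.92% of all tested genes were (and 6.98% wholly above), and 3 in month 12 oil livers, where 4.88% were. Ifih1, Irf1, Gbp2, Gbp6 and Gbp7 were called in none of the comparisons.

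The month 0 mice varied widely in these genes. The median SD of log2 levels over the 40 members was 0.47 at month 0, against 0.21 over all tested genes, and 33 of the 40 members had their widest spread in that group. In the other 5 groups the members' median SD lay between 0.17 and 0.26. Month 0 replicate 3 was the highest mouse for 35 of 40 members, replicate 2 the lowest for 21 and replicate 4 the lowest for 14. Relative to each gene's mean over all 36 mice, the median log2 level of the 40 genes was 0.60, -0.11, 0.95, -0.12, 0.51 and 0.04 in month 0 replicates 1 to 6. Replicates 2, 4 and 6 thus lay within the range of the 12 oil mice, which reached from -0.37 to 0.10. Replicates 2 and 6 also had the highest pancreas markers of month 0, at 10537 and 12283 CPM against 1.11 to 1562 CPM in the other 4. The summed plasmacytoid dendritic cell list was highest in the same mice, at 127 and 159.7 CPM against 24.7 to 46.8 CPM. In every group but month 12 CCl4, the mouse highest for that list was also highest for pancreas markers. Its sum can thus not be read as a level of plasmacytoid cells. Replicate 4 had the highest hepatocyte markers, at 198633 CPM against 131329 to 150714 CPM in the other 5. The part of these in the low levels was not tested.

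Leaving out month 0 replicate 3 lowered the count of members called lower to 25 in month 2 oil livers and 16 in month 12 oil livers, and to 0 the count called higher in month 12 oil livers. Without that mouse the log2 fold changes of Gbp3, Ifit3, Igtp and Irgm2 in month 2 oil livers, and of Ifi44, Ifit3, Igtp and Tap1 in month 12 oil livers, shrank by more than 1.5 times. The values without it were -0.35, -0.39, -0.63 and -0.29 for Gbp3, Ifit3, Igtp and Irgm2 in month 2 oil livers, and -0.61, -0.45, -0.62 and -0.27 for Ifi44, Ifit3, Igtp and Tap1 in month 12 oil livers. Neutrophil markers moved with this comparison, at summed levels of 8.77 to 15.2 CPM in month 2 oil livers and 9.66 to 31.2 CPM in month 12 oil livers, against 44.9 to 111 CPM at month 0. All 5 tested neutrophil markers were called lower in both oil groups. B and plasma cell markers ran the other way, at 20.4 to 260 CPM in month 2 oil livers and 22.9 to 303 CPM in month 12 oil livers, against 5.65 to 13 CPM at month 0. Erythroid markers were at 999 to 1807 CPM and 419 to 1782 CPM in these oil groups, against 184 to 1046 CPM at month 0. Month 0 replicate 3 had the highest neutrophil and erythroid levels of its group. The part of these cells in the result was not tested, and the age of the mice and the oil treatment cannot be told apart.

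**Figure D5:**
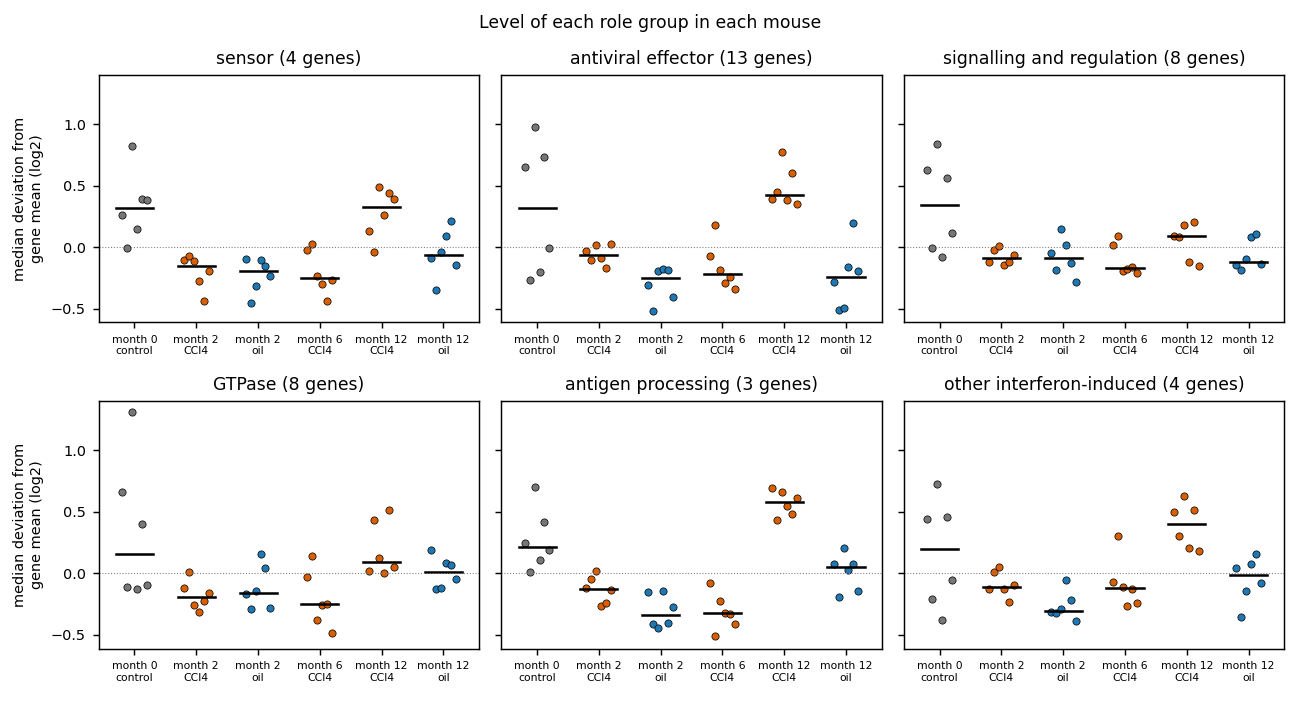
Median log2 deviation of each role group's genes from their mean over all 36 mice, by mouse (points), with the group median as a bar. Month 0 mice spread most, and the 6 month 12 CCl4 mice lie above the 6 month 12 oil mice for effectors, antigen processing and the other interferon-induced genes, but overlap them for sensors, signalling genes and GTPases.

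Within groups the members varied together from mouse to mouse. After group means were removed, the median correlation over 780 pairs of members was 0.51 across 36 mice, and 0.31 across the 30 mice without month 0. The median over all pairs of tested genes was -0.002. The points of each pair share library, depth and scaling, and the values are a description. In month 12 oil livers, replicate 5 was the highest mouse for 24 members and replicate 2, one of the 4 libraries left out in a run above, the lowest for 23. In month 12 CCl4 livers replicate 3 was the highest for 18 and replicate 6 the lowest for 14.

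Calls in other interferon-induced lists were mostly in the lower direction against month 0, and most of their genes were not called in month 12 oil livers. The shares of all tested genes were 16.4% lower and 14.8% higher in month 2 oil livers, and 12.2% lower and 11.1% higher in month 12 oil livers. Of 57 antiviral genes outside the 40, 25 were called lower and 0 higher in month 2 oil livers, and 19 and 0 in month 12 oil livers, with medians of -0.36 and -0.30. Ifitm2 had -1.62 and -1.26, and Ifitm1 -1.21 and -1.19. Of 19 genes of MHC class I presentation, 11 were lower in month 2 oil livers and 6 in month 12 oil livers, Tapbp among them at -0.51 and -0.43. With library totals alone, 14 and 12 of the antiviral genes and 4 and 3 of the MHC class I genes were lower. Of the 15338 tested genes, 1028 and 926 were then lower. Of 9 genes induced by interferon gamma, 1 was higher and 3 were lower in each oil group. Ccl5, a chemokine of T cells, was the higher one (1.43 and 1.18), and Il18bp (-1.22 and -1.09), Wars (-1.21 and -0.89) and Cxcl11 (-0.76 and -0.90) were the lower ones. The receptors were mostly uncalled, with Ifnar2 lower in month 2 oil livers (-0.39; adjusted p = 0.000961) and Il10rb higher in month 12 oil livers (0.34; adjusted p = 0.0409).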

How the data were processed

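Gene counts of 36 liver libraries were analysed as deposited by the authors. Per the labels' protocols, TRIzol was used for extraction, and stranded paired-end libraries of RNA depleted of ribosomal RNA were sequenced and mapped with Biojupies. The submitters' processing notes name mm10, edgeR 3.30.3 and limma 3.44.3. The tool that assigned reads to genes is not stated there. Groups came from the labels, with each mouse a separate sample.

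All libraries were fitted in 1 model of 6 group means with edgeR 4.0.16 in R 4.3.3, after its expression filter and TMM scaling, with quasi-likelihood tests adjusted by Benjamini-Hochberg over 15338 genes. SE is the log2 fold change divided by the root of F. Levels are TMM-scaled CPM. On simulated month 12 data with 200 changed genes, 80% of genes changed 2-fold were recovered, and 4.97% of calls were unchanged genes. In the mice, 49.1% of all tested genes were called in either direction at month 12. The share of wrong calls where so many genes change was not tested. Alternatives were other size factors, filters, DESeq2 1.42.0, limma-voom 3.58.1, the replicate block, the compared groups alone and fewer libraries. Members called in a comparison and those that define a role were named, and from other lists up to 3 called genes per direction by smallest p. Interferon receptors were named in any case. The members and lists were chosen with earlier results of these data known.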

Additional observations from a re-analysis of the deposited data

Results flagged for a closer look

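Among the 240 sets of 6 mice, 1 for each member and group, 22 had a mouse that stood far from the other 5. Chance gives about 1 in 20 for a single set. The sets share mice and the members vary together, so the 22 cannot be read against that rate. Month 0 replicate 3 stood far from the others for Irf1 (74.2 CPM), Gbp7 (60.3 CPM), Igtp (119 CPM), Irgm2 (120.2 CPM) and Psmb9 (23.6 CPM). It was the highest of its group each time. Month 6 CCl4 replicate 2 was highest for Oas1a (11.6 CPM), Mx2 (9.04 CPM), Gbp2 (21.8 CPM), Igtp (33.4 CPM) and Ifi44 (11 CPM). Month 12 oil replicate 2 was high for Gbp2 (25.0 CPM) and low for Iigp1 (318 CPM) and Ifi35 (19.1 CPM).

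Month 2 CCl4 replicate 1 was high for Mx2 (6.73 CPM) and Rsad2 (30.1 CPM), and month 2 oil replicate 4 for Irf7 (36.2 CPM) and Psmb8 (28.4 CPM). Single cases were Rsad2 in month 2 oil replicate 5 (15.7 CPM), Oas3 in month 12 CCl4 replicate 3 (7.05 CPM), Zbp1 in month 12 oil replicate 4 (9.30 CPM) and Ifit3 in month 12 oil replicate 5 (29.2 CPM), all high. Irf9 was low in month 12 CCl4 replicate 6 (17.4 CPM).

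The CCl4 effect was larger at month 12 than at month 2, by the test of the difference itself, for Oasl1 (1.19 log2), Mx1 (1.05), Ifit2 (1.00), Zbp1 (0.95), Psmb8 (0.57), Tap1 (0.52) and Ifi35 (0.37).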

How the results depend on the processing

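With library totals alone, members called higher in CCl4 livers numbered 10, 14 and 37 at months 2, 6 and 12. Of the 15338 tested genes, 3160, 8884 and 10331 were. Members called lower at month 12 numbered 0, where 592 of all tested genes were. A larger effect at month 12 than at month 2 was called for 21 members, and for 5115 of all tested genes. In month 2 oil livers, 18 members were lower than at month 0, where 1028 of all tested genes were. Stat2 (0.25), Irf9 (0.24) and Parp9 (0.050) then turned positive at month 12, as the median of all tested genes moved from 0.01 to 0.56. The cause of the difference in scaling factors between groups was not tested. In fits of the compared groups only, 5 members were higher and 2 lower at month 2, where 1365 and 817 of 14187 genes were. In month 12 oil livers 12 members were lower, where 1525 of 13725 genes were. With the 4 libraries left out, 1 was higher and 1 lower at month 6, and 4 differed between months 12 and 2. Against month 2 oil alone, 1 member was higher at month 6; against month 12 oil alone, 0 were higher and 1 lower. The 1 member higher in month 12 oil livers dropped to 0 with no filter and with limma-voom. Leaving out 1 library gave 0 to 3 higher and 0 to 1 lower at month 6, 19 to 22 higher and 2 to 4 lower at month 12, 4 to 8 for the difference between months, 25 to 34 lower in month 2 oil livers, and 16 to 30 lower and 0 to 1 higher in month 12 oil livers. The lowest counts were those without month 6 CCl4 replicate 2, month 12 CCl4 replicate 6 (lower calls at month 12), month 12 oil replicate 2 (difference between months) and month 0 replicate 3. At month 2 the count stayed at 1 without each library. With the replicate block, 21 members were higher and 4 lower at month 12. In that run 29 were lower in month 2 oil livers and 23 in month 12 oil livers. Same-numbered mice had correlations from -0.56 to 0.52. Whether they shared a batch cannot be told from so wide a range. Of the 88 called values, 87 kept direction and call under DESeq2 and 77 under limma-voom. Bulk RNA cannot place a change in a cell type, and 6 mice a group at 1 age per group limit what the oil comparison can tell.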
